A study of Mus musculus with 8 samples.

Results

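The 10 genes described here set the activity of CDK1, the kinase whose activation ends the prophase arrest of the mouse oocyte, or act beside it. They are the inhibitory kinases Wee1, Wee2 and Pkmyt1, the activating phosphatases Cdc25a, Cdc25b and Cdc25c, the kinase Cdk1 itself, its cyclin partners Ccnb1 and Ccnb2, and the kinase Mos. They were chosen by name and not by a cut-off on their values, though earlier results of these data were known. The choice was from 52502 genes with an exon in the deposited counts. Of the 10, 8 were among the 10673 genes with enough counts to be tested. Polyadenylated RNA was measured in 8 libraries of germinal vesicle (GV) oocytes, 4 of Kiaa1429 cKO oocytes (genotype Kiaa1429F/F;Zp3-Cre) and 4 of control oocytes (Kiaa1429F/+;Zp3-Cre), all from C57BL/6 females whose age the labels give as 20 days and also as 3 weeks. All females received 5 IU of PMSG, a gonadotropin that stimulates follicle growth, and 48 hours later oocytes of at least 70 µm were collected in M2 medium with 2.5 mM milrinone. Each library held about 20 oocytes, and the labels mention 4 experiments without tying libraries to animals or experiments, so p-values measure the spread between libraries. Zp3-Cre is active in growing oocytes, so the follicle cells keep the gene, and the controls carry Cre and lose 1 copy. Kiaa1429, listed as Virma, encodes a large scaffold protein of the m6A writer, which places N6-methyladenosine on RNA.

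CDK1 bound to a B-type cyclin drives entry into the meiotic divisions. In arrested oocytes it is held inactive by phosphates that Wee1-family kinases and Pkmyt1 place on a threonine and a tyrosine near its start, and Cdc25 phosphatases remove them. In the mouse oocyte cyclic AMP keeps the balance on the side of arrest, since protein kinase A activates WEE2, an oocyte-specific Wee kinase, and restrains CDC25B, the phosphatase required for resumption. Milrinone inhibits the phosphodiesterase PDE3A and so holds oocytes in arrest during collection. MOS starts a MAPK cascade after resumption and is needed for the later arrest at metaphase II, and its mRNA is stored in the GV oocyte with little translation.

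The site on which the Wee and Cdc25 enzymes act is shown here because it is their shared target. The first 20 codons of the Cdk1 coding sequence lie on the minus strand of mm10 (GRCm38), at chr10:69350096-69350132 and chr10:69346209-69346231, and the capitals mark codons 14 (threonine) and 15 (tyrosine).
Cdk1 codons 1 to 20: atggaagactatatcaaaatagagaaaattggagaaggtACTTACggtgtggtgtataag
The 3′ ends of 5 members follow, since the libraries were primed with oligo-dT and most counts of these genes fall on the last exon. Each is a window of 30 bases in the 3′ UTR of the main GENCODE M21 transcript, with the poly(A) signal AATAAA or ATTAAA in capitals and, in Wee2, also a cytoplasmic polyadenylation element TTTTAAT, a motif through which stored oocyte mRNAs gain longer tails.
Wee1, chr7:110143237-110143266, plus strand: tcttattaacattgtctggtgtATTAAAag
Wee2, chr6:40466766-40466795, plus strand: taTTTTAATccagatcattgtaAATAAAga
Cdc25a, chr9:109893851-109893880, plus strand: accaacagttgcaggctctgcaAATAAAag
Ccnb2, chr9:70407703-70407732, minus strand: actctgctctgtattgaaggaaAATAAAgc
Mos, chr4:3870671-3870700, minus strand: ccactagggcatatttttaggaAATAAAgt
A search of the sense strand of the last 100 bases for TTTTAT or TTTTAAT found 2 matches in Wee2, 1 in Ccnb1 and 0 in the other members, while 17.2% of 18962 main transcripts held at least 1. AATAAA or ATTAAA was present in 73.8% of those windows. The letters GGACT, a common context of N6-methyladenosine, occurred in the last 1000 bases of Wee1, Wee2, Pkmyt1, Cdk1 and Ccnb2, and in 61.9% of all main transcripts. These matches describe letters, not sites in use.

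The targeted gene separated the groups. Virma had 19.4 ± 3.26 CPM (counts scaled to an equal library size with TMM factors) in Kiaa1429 cKO oocytes and 67.9 ± 11.2 CPM in control oocytes (SD, n = 4 each), a log2 fold change of -1.81 ± 0.18 (SE) with an adjusted p of 1.02e-06 by the quasi-likelihood test of edgeR with Benjamini-Hochberg adjustment over all genes tested. Counts on exons were 4399190 to 5064008 in cKO libraries and 4247471 to 4790038 in control libraries, and 3 counts correspond to 0.592 to 0.706 CPM. Reads set aside because they met more than 1 exon ID made up 79.3% ± 0.751 of reads in cKO and 73.8% ± 1.07 in control libraries (exact two-sided permutation p = 0.0286, the smallest that 4 against 4 allows). Reads outside every exon made up 5.77% ± 0.531 in cKO and 11.003% ± 0.883 in control libraries (exact permutation p = 0.0286). Summed oocyte markers gave 17828 to 21389 CPM in cKO and 33595 to 46398 CPM in control libraries, with Bmp15 and Gdf9 holding most of both sums, and 4 of 10 tested markers lower. Summed cumulus and granulosa markers gave 455.7 to 747 CPM in cKO and 238 to 399.7 CPM in control libraries, with 4 of 10 tested markers higher, 2 (Fshr and Cyp19a1) lower and the defining marker Nr5a1 at 0 counts in every library. Most of that sum was Nr5a2, with 323 CPM in cKO and 139 CPM in control libraries, and Inha, with 174 CPM in cKO and 66.1 CPM in control libraries. The counts of called oocyte and granulosa markers stand beside 27.0% higher and 27.9% lower of all genes tested. Of 8 immune and blood markers, 5 including Ptprc were at 0, and the sum of all 8, 7.94 CPM in cKO and 0.767 CPM in control libraries, was mainly C1qa in cKO. How much of each marker could be counted is not given here, so a marker at 0 counts is not shown to be absent. The part of these shifts in the members' values was not tested, and fewer cells of a type cannot be told apart from less RNA per cell in such pooled samples.

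Of the 8 members tested, 2 were higher in Kiaa1429 cKO oocytes (Wee1, Cdc25a), 3 were lower (Wee2, Ccnb2, Mos) and 3 passed no threshold (Pkmyt1, Cdc25c, Cdk1). Over all genes tested, 27.0% were higher and 27.9% lower, 54.9% in all at an adjusted p under 0.05, so 5 of 8 is close to the background and is no result about these genes as a group. The median log2 fold change was -0.03 over the tested members and 0.02 over all genes tested. Groups did not overlap for the 5 called members, as for 50.1% of all genes tested.

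**Figure D1:**
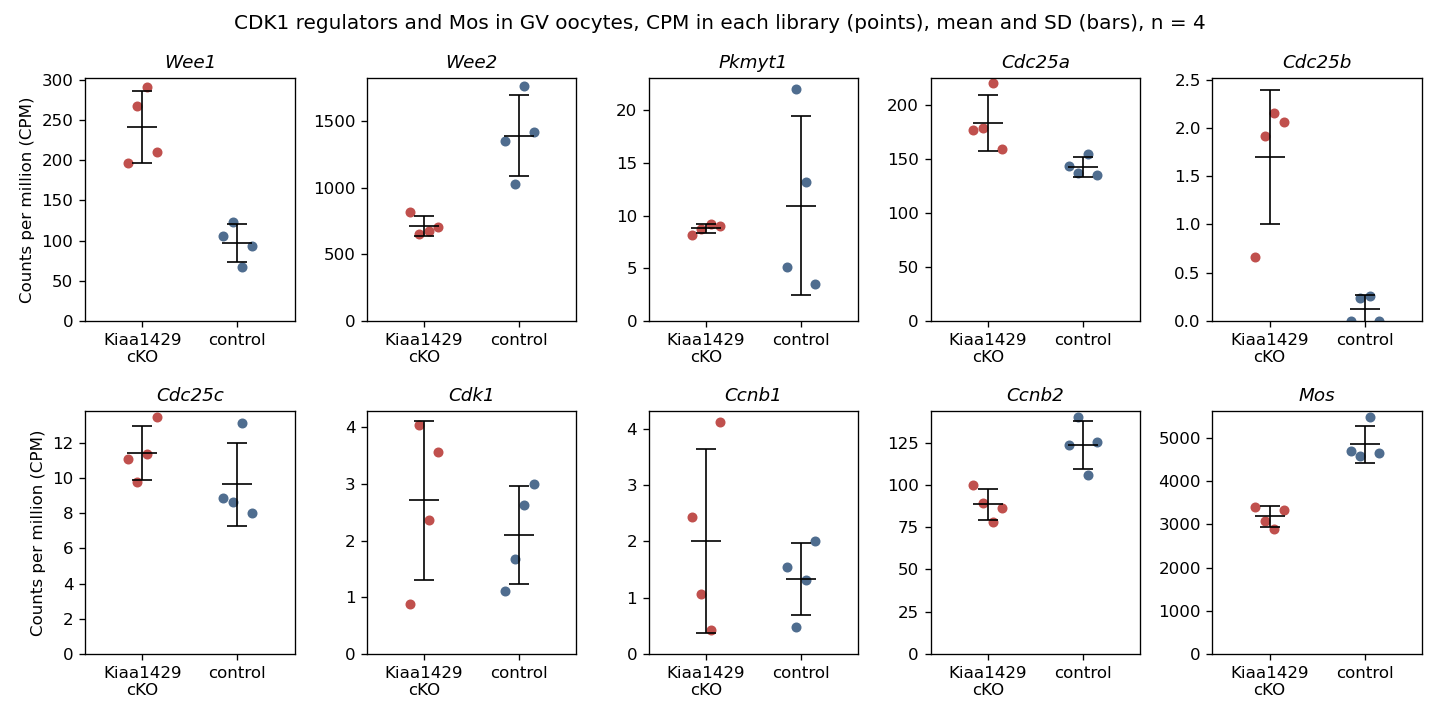
CPM of each of the 10 members in the 4 Kiaa1429 cKO and the 4 control libraries, on linear axes with 1 point per library and bars for the mean and SD. Wee1 lay between 196 and 291 CPM in cKO libraries and between 66.8 and 123 CPM in control libraries, while Wee2 lay between 649 and 820.2 CPM in cKO and between 1026 and 1760.5 CPM in control libraries.

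The Wee1 and Wee2 transcripts moved in opposite directions. Wee1 (ENSMUSG00000031016, chr7:110122046-110143286, plus strand), the Wee kinase that also acts in the somatic cell cycle, had 196, 267, 291 and 210.3 CPM in cKO libraries and 105, 123, 66.8 and 93.3 CPM in control libraries. Every cKO library was above every control library. The means were 241 ± 45.1 CPM in cKO and 97.1 ± 23.6 CPM in control oocytes (SD, n = 4 each), 2.48-fold higher (log2 fold change 1.31 ± 0.19 SE, edgeR adjusted p = 2.93e-05). Wee2 (ENSMUSG00000037159, chr6:40439088-40466813, plus strand), the oocyte-specific kinase, had 820.2, 649, 675 and 704 CPM in cKO libraries and 1349, 1026, 1760.5 and 1415 CPM in control libraries. Every cKO library was below every control library. The means were 712 ± 75.6 CPM in cKO and 1388 ± 301 CPM in control oocytes (SD, n = 4 each), and Wee2 was at 51.3% of its control level (log2 fold change -0.96 ± 0.15 SE, edgeR adjusted p = 8.46e-05).

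The balance of the Wee kinases was set on a scale that allows for length, CPM per kilobase of the last exon that no other exon ID overlaps. Wee2 reached 703 ± 75.6 CPM per kilobase in cKO and 1350.3 ± 290 in control oocytes, and Wee1 178 ± 33.8 in cKO and 69.4 ± 19.0 in control oocytes (SD, n = 4 each). Wee2 therefore stayed the more abundant transcript in all 8 libraries. Its level was 5.53, 3.20, 3.10 and 4.55 times that of Wee1 in cKO libraries, against 17.3, 11.2, 38.1 and 20.4 times in control libraries. The ranges of this ratio did not overlap, as a description of the levels above and with no separate test.

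Pkmyt1 (ENSMUSG00000023908, chr17:23726336-23736735, plus strand), the membrane-bound kinase that can phosphorylate both residues, had 348 counts over all 8 libraries. It had 8.20, 8.71, 9.24 and 8.99 CPM in cKO libraries and 5.101, 22.0, 13.2 and 3.50 CPM in control libraries. The control libraries lay on both sides of the narrow cKO range. The log2 fold change was -0.31 (95% interval -1.12 to 0.50, edgeR adjusted p = 0.546), and the lower end of that interval lies beyond a 2-fold decrease. Without control replicate 2 the value was 0.28, and the 488-base exon, at -0.09 with all libraries, was called higher (0.95, edgeR adjusted p = 0.0302). The last exon of the main Pkmyt1 transcript, 236 bases, is overlapped along its whole length by an exon of the neighbouring gene Paqr4, so no read there could be counted and the level comes from upstream exons alone.

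**Figure D2:**
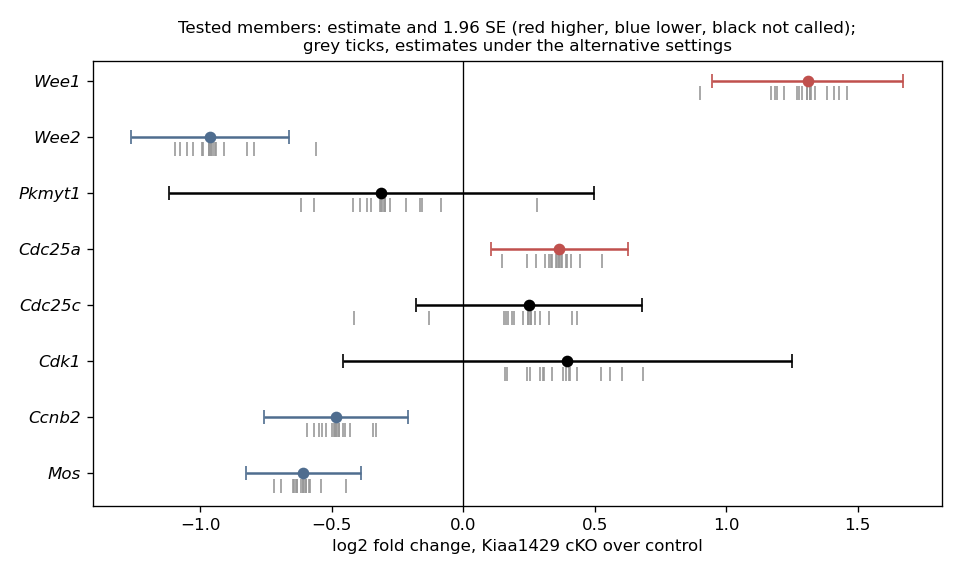
Log2 fold change of each tested member, Kiaa1429 cKO over control oocytes, with bars for its 95% interval from the edgeR fit. Grey ticks are estimates under the alternative settings, and values right of 0 are higher in cKO. Wee1 at 1.31 and Wee2 at -0.96 lie farthest from 0, and Pkmyt1, Cdc25c and Cdk1 did not pass the threshold.

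Among the phosphatases, Cdc25a (ENSMUSG00000032477, chr9:109875579-109893895, plus strand), which contributes to resumption beside CDC25B, was the one with a countable last exon and a call. It had 177, 179, 221 and 159 CPM in cKO libraries and 144, 137, 155 and 135 CPM in control libraries. The lowest cKO library lay just above the highest control library. The means were 184 ± 26.0 CPM in cKO and 143 ± 9.03 CPM in control oocytes (SD, n = 4 each), with a log2 fold change of 0.37 ± 0.13 SE and an edgeR adjusted p of 0.0296. This call was lost when 1 library was left out in 5 of 8 cases, with adjusted p-values of 0.0506 without cKO replicate 2, 0.144 without cKO replicate 3, and 0.0753, 0.0636 and 0.0697 without control replicates 1, 2 and 4, and it was also lost when last exons were left out (log2 fold change 0.15, adjusted p = 0.560).

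Cdc25c (ENSMUSG00000044201, chromosome 18, minus strand) had 11.1, 9.77, 11.4 and 13.5 CPM in cKO libraries and 8.87, 8.62, 13.2 and 8.00 CPM in control libraries. Control replicate 3 lay inside the cKO range, so the groups overlapped. The log2 fold change was 0.25 (95% interval -0.18 to 0.68, edgeR adjusted p = 0.358), and it turned to -0.13 with last exons left out and to -0.42 when only exon IDs of protein-coding transcripts were summed. CDC25C is a phosphatase of the mitotic cycle that mice can lack and remain fertile.

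Cdc25b (ENSMUSG00000027330, chr2:131186949-131198497, plus strand), the phosphatase mouse oocytes require for resumption, could hardly be measured. It had 0.665, 1.91, 2.15 and 2.06 CPM in cKO libraries and 0, 0.239, 0.263 and 0 CPM in control libraries, 33 counts against 2 in all. The ratio after allowing for library size was 14.2 (95% Clopper-Pearson interval 3.62 to 121.8, which covers counting error only), and the gene did not pass the low-count filter. With no filter it was called higher (log2 fold change 3.55 ± 0.80 SE, edgeR adjusted p = 7.43e-05), beside 13.3% of genes called higher and 12.7% lower in that fit. All 33 cKO counts and 1 of the 2 control counts fell on a single exon ID, chr2:131191813-131192102, 290 bases long, that the annotation lists only in a transcript with a retained intron. Of the last exon of the main transcript, 1269 bases, 2 bases are free of another exon ID, so the difference concerns that stretch and the level of the Cdc25b mRNA was not measured.

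CDK1 and its cyclins came next. Cdk1 (ENSMUSG00000019942, chr10:69335146-69352938, minus strand) had 0.886, 4.04, 2.36 and 3.56 CPM in cKO libraries and 1.11, 1.68, 2.63 and 3.00 CPM in control libraries. The groups overlapped across nearly their whole ranges, with a log2 fold change of 0.40 (95% interval -0.46 to 1.25, edgeR adjusted p = 0.464). These counts come mainly from the part of a long last exon, 3178 of 3451 bases, that lies beyond the shorter last exon of 273 bases. Reads on the shorter form are ambiguous between both exon IDs, so the low value is not the level of Cdk1 mRNA.

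Ccnb1 (ENSMUSG00000041431, chr13:100778650-100786570, minus strand), the main cyclin partner of CDK1, had 2.44, 1.06, 0.430 and 4.12 CPM in cKO libraries and 1.55, 0.479, 1.32 and 2.00 CPM in control libraries, 40 counts against 22. The ratio was 1.56 (95% interval 0.905 to 2.76, counting error only) and the groups overlapped. None of the bases of its main transcript could be counted, as 0% are covered by a single exon ID. Ccnb1 also shares 97.6% identity over 758 bases with the pseudogene Gm12856 and 99.2% over 751 bases with the pseudogene Ccnb1-ps. More stretches match other copies. Ccnb1 was thus unmeasured in these files, not shown to be low.

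Ccnb2 (ENSMUSG00000032218, chr9:70407692-70421547, minus strand) is the cyclin that can pair with CDK1 during resumption. Every base of its main transcript is covered by a single exon ID. Reads that crossed from 1 exon to the next still met more than 1 exon ID. Over all libraries a 111-base exon held 6 counts, against 2815 on the 338-base last exon. Ccnb2 had 100.1, 89.2, 78.0 and 86.1 CPM in cKO libraries and 123, 140.3, 106 and 125 CPM in control libraries. Every cKO library was below every control library. The means were 88.4 ± 9.15 CPM in cKO and 124 ± 14.1 CPM in control oocytes (SD, n = 4 each; log2 fold change -0.48 ± 0.14 SE, edgeR adjusted p = 0.00823). The call was lost without library scaling factors (-0.33, adjusted p = 0.0650) and with last exons left out (-0.34, adjusted p = 0.158).

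Mos (ENSMUSG00000078365, chr4:3870657-3872105, minus strand) consists of a single exon free of any other exon ID and so was fully countable. It had 3413, 3088, 2902 and 3335 CPM in cKO libraries and 4697, 4579.9, 5483 and 4649.8 CPM in control libraries. Every cKO library was below every control library. The means were 3184 ± 234 CPM in cKO and 4852 ± 423 CPM in control oocytes (SD, n = 4 each), so Mos was at 65.6% of its control level (log2 fold change -0.61 ± 0.11 SE, edgeR adjusted p = 0.000319).

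**Figure D3:**
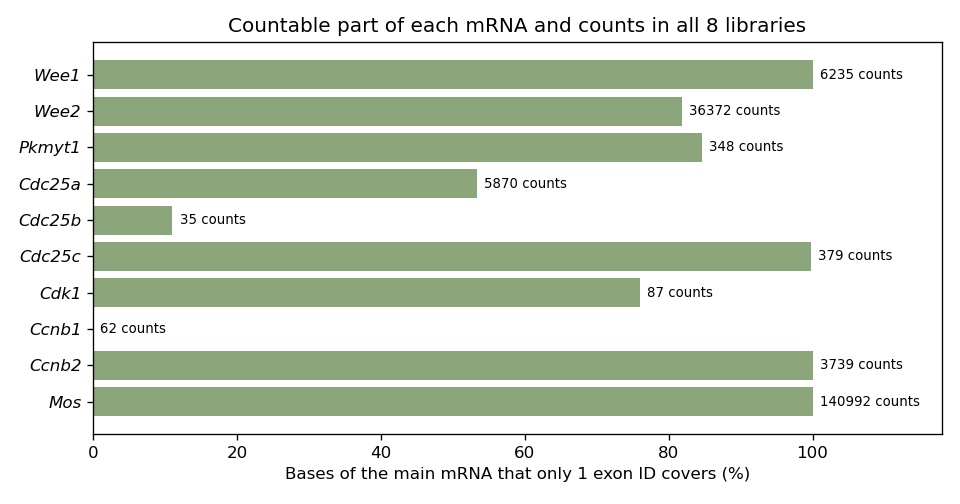
Percentage of the bases of each member's main transcript that are covered by exactly 1 exon ID. Reads that cross from 1 exon to the next still meet more than 1 exon ID. Only the single-exon Mos could therefore collect counts along its whole length. Wee1, Ccnb2 and Mos reach 100%, Cdc25b 11.02% and Ccnb1 0%.

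On the per-kilobase scale, levels could be ordered for the 6 members whose main transcript's last exon is listed in the files with at least 300 countable bases. Cdc25c was left out, since the files list a 397-base exon inside its 401-base last exon but not that exon itself. Mos led with 2243 ± 175 CPM per kilobase in cKO and 3355 ± 303 in control oocytes (SD, n = 4 each), ranks 25 and 18 of 5471 genes compared in the same way. Wee2 followed at ranks 120 and 54. Ccnb2 was next at 202 ± 18.8 in cKO and 276 ± 30.6 in control oocytes. In cKO oocytes Wee1 (146.8 to 214 CPM per kilobase) overlapped Ccnb2 (185 to 227) above it and Cdc25a (108 to 157) below it. In control oocytes Cdc25a (89.6 to 101) lay above Wee1 (45.3 to 91.1) with a slight overlap. The mean levels of Wee1 and Cdc25a thus stood in opposite order in the groups, though neighbours overlapped in both. Cdk1 stood last at 0.759 in cKO and 0.605 in control oocytes for the countable part of its long last exon.

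Counts kept per exon showed where these values came from. Of 180 exon IDs of the members, 64 held a count and 19 in 8 members could be tested, of which 3 were higher in Kiaa1429 cKO oocytes, 5 were lower and 11 passed no threshold, beside 26.2% higher and 27.3% lower of 14052 exons tested. Last exons held 96.1% of the counts of Wee1, 96.8% of Wee2, 85.7% of Cdc25a and 75.3% of Ccnb2. The last exon of Wee1, 1331 bases, had 863, 1226, 1311 and 1058 counts in cKO libraries and 452, 496, 228 and 358 counts in control libraries (log2 fold change 1.36 ± 0.20 SE, edgeR adjusted p = 3.43e-05). Its first exon, 880 bases, moved the same way with 16, 18, 31 and 44 counts in cKO libraries and 4, 6, 14 and 1 counts in control libraries (1.88 ± 0.49 SE, edgeR adjusted p = 0.00466). That value was 2.67 without control replicate 3, and 1.53 to 2.06 without any other single library. After scaling, the groups overlapped slightly on the first exon, with 3.62 CPM in the lowest cKO and 3.71 CPM in the highest control library.

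Exon 2 of Wee1 did not follow the others. It had 7, 10, 5 and 17 counts in cKO libraries and 15, 11, 10 and 10 counts in control libraries, with groups that overlapped and a log2 fold change of -0.43 ± 0.35 SE (edgeR adjusted p = 0.319). Relative to the other tested exons of Wee1 its log2 usage was lower by 1.77 (diffSpliceDGE of edgeR, adjusted p = 0.00930). Wee1 was the 1 member called for unequal exon usage among the 6 that could be tested (gene-level adjusted p = 0.0137), beside 23.6% of 2847 genes. The call rests on few counts and was lost without cKO replicate 3 (adjusted p = 0.0968) and without control replicate 1 (adjusted p = 0.0617). Reads that crossed into a neighbouring exon could not be counted on exon 2. Ambiguous reads made up 79.3% in cKO and 73.8% in control libraries, and their part in this call was not tested. The exon is printed because, among the tested exons of those 6 members, it alone departed from its gene. It lies at chr7:110124456-110124661 on the plus strand, is 206 bases long, is coding and contains no GGACT.
Wee1 exon 2: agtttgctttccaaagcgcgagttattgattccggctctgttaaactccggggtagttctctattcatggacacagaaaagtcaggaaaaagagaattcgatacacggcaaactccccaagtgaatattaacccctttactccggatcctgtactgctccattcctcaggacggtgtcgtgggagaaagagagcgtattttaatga

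**Figure D4:**
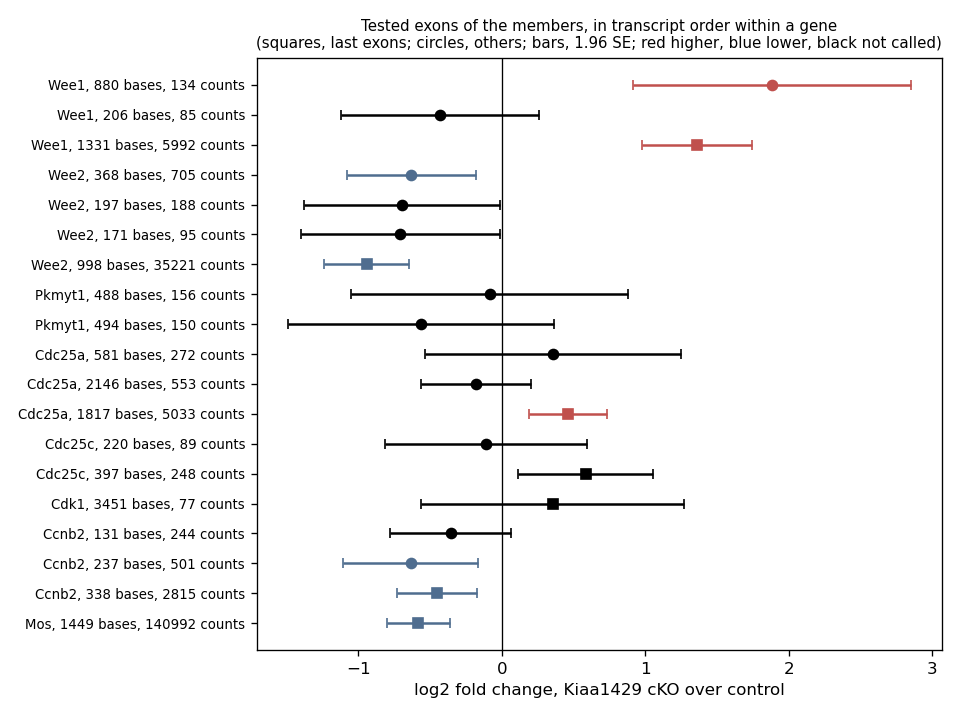
Log2 fold change, Kiaa1429 cKO over control oocytes, of the 19 tested exons of 8 members, with bars for 95% intervals from the exon-level edgeR fit. The 4 Wee2 exons lie below 0, and in Wee1 the first and last exons lie above 0 while exon 2 is at -0.43.

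All 4 tested exons of Wee2 had negative values. The last exon, 998 bases, was lower (-0.94 ± 0.15 SE, edgeR adjusted p = 9.32e-05), as was the 368-base coding exon (-0.63 ± 0.23 SE, adjusted p = 0.0298), whose call was lost without any of 5 single libraries (adjusted p up to 0.0933). The 197-base and 171-base exons had values of -0.70 and -0.71 with adjusted p-values of 0.106 and 0.105. With last exons left out, the gene-level log2 fold change of Wee2 was -0.56 (adjusted p = 0.0218) and that of Wee1 0.90 (adjusted p = 0.0161), so both calls held at smaller sizes, beside 23.2% of genes higher and 23.8% lower in that fit (47.0% in all). In Ccnb2 the last exon, 338 bases, was lower (-0.45 ± 0.14 SE, edgeR adjusted p = 0.0148), as was a 237-base exon (-0.63 ± 0.24 SE, adjusted p = 0.0363), and a 131-base exon was at -0.36 (adjusted p = 0.178). The first of these calls was lost without cKO replicate 3 or 4 and the 237-base call without any of 5 libraries, with adjusted p-values of up to 0.119.

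In Cdc25a the last exon, 1817 bases, was higher (0.46 ± 0.14 SE, edgeR adjusted p = 0.0110), with 3071 counts in cKO against 1962 in control libraries. A 2146-base exon ID listed only in a non-coding transcript of the gene had 277 counts in cKO against 276 in control libraries (-0.18, adjusted p = 0.460). In Cdc25c a 397-base last exon, an ID listed in no protein-coding transcript, was at 0.58 ± 0.24 SE (edgeR adjusted p = 0.0526). A 220-base exon of the gene was at -0.11. Neither Cdc25a nor Cdc25c was called for exon usage, with gene-level adjusted p-values of 0.531 and 0.745.

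Genes that act on this switch were described from lists chosen by role. Of 62 listed genes, 39 were tested, 14 were higher in Kiaa1429 cKO oocytes and 4 were lower, beside 27.0% and 27.9% of all genes, and the median log2 fold change was 0.17. The 14-3-3 proteins bind phosphorylated CDC25 and hold it from its target. Of 7 listed, 6 were tested and 2 were higher, Ywhah with 511 ± 42.0 CPM in cKO and 271 ± 39.6 CPM in control oocytes (SD, n = 4 each; log2 fold change 0.91, edgeR adjusted p = 4.10e-05) and Sfn with a log2 fold change of 0.86. Of 29 kinases, phosphatases and their partners that act on Wee kinases, CDC25 or CDK1 substrates, 19 were tested, 6 were higher and 1 was lower. Those of smallest p were Ppp1cb, a catalytic subunit of protein phosphatase 1 (log2 fold change 1.11), Aurkb, an Aurora kinase (0.91), Cdc14b, a phosphatase of CDK substrates (0.92), and Ppp2ca, a catalytic subunit of protein phosphatase 2A (0.59). The 1 lower gene, named after its values were seen, was Bora, the activator of Aurora A towards Plk1 (-0.49).

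Of 17 other cyclins, CDKs and their partners, 9 were tested, 5 were higher and 1 was lower. Cdk7, the catalytic subunit of the CDK-activating kinase, had 52.0 ± 3.26 CPM in cKO and 25.4 ± 1.94 CPM in control oocytes (SD, n = 4 each; log2 fold change 1.03, edgeR adjusted p = 3.77e-05). Its cyclin partner Ccnh also was higher (0.75). Ccne1, a cyclin of the G1/S transition, was higher with 53.1 ± 15.2 CPM in cKO and 13.7 ± 8.00 CPM in control oocytes (1.95), while Cdk6, a G1 kinase, was lower (-1.66). Of 9 genes of the MAPK cascade below Mos, 5 were tested, 1 was higher and 2 were lower. Map2k1, the kinase that MOS phosphorylates, had 613 ± 33.7 CPM in cKO and 422 ± 66.1 CPM in control oocytes (SD, n = 4 each), a log2 fold change of 0.54 opposite in sign to that of Mos. Fbxo43, the inhibitor of the anaphase-promoting complex known as EMI2, was lower with 263 ± 12.9 CPM in cKO and 395 ± 119 CPM in control oocytes (-0.59). Rps6ka3, a ribosomal S6 kinase, was also lower (-0.93), but at low levels of 1.86 ± 0.516 CPM in cKO and 3.62 ± 0.945 CPM in control oocytes.

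The genes whose levels varied most like a member over the 8 libraries were named by Pearson's r of log2(CPM + 0.5) among 5024 protein-coding genes. For Wee1 these were Yy1 (r = 0.999) and Zmym2 (r = 0.994), for Wee2 Cd160 (r = 0.995) and Ppef1 (r = 0.991), and for Mos Svip (r = 0.997) and Bmp15 (r = 0.996). The 8 points fall into the 2 groups and share library and depth, so a high r also reflects the difference between groups. Of the genes compared, 12.5% had an r above 0.9 with Wee1, 8.08% with Wee2 and 10.9% with Mos.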

How the data were processed

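For each library the authors deposited a table of whole-number read counts on exon IDs. The submitters' processing notes name STAR, HTSeq and mm10, while the sources used here give no versions, options or annotation. Per the labels' protocols, oligo-dT-primed, template-switched cDNA was tagmented and sequenced in pairs of 150 bp, which does not mark strand.

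Each table lists 496288 exon IDs. Of these 494230 (99.6%) matched GENCODE M21, ignoring versions, and 2058 (0.252% of counts) were left out, as were 5 summary rows that name no gene. A base is called countable where exactly 1 exon ID covers it, because reads meeting more than 1 are held in the ambiguous row. Reads that cross from 1 exon to the next are held there too, so countable bases of short exons can collect few counts. A gene's count is the sum over its exon IDs; 85.3% of counts lie on last exons. After filterByExpr (minimum count 10) and TMM scaling, genes were compared by the two-sided quasi-likelihood test in edgeR (version 4.0.16, with R 4.3.3 and limma 3.58.1) with group as the only term and Benjamini-Hochberg adjustment over all genes, threshold 0.05. CPM values use TMM-scaled library sizes. The standard error is the log2 fold change over the root of F. Exons were fitted likewise, and exon usage by diffSpliceDGE. Copies were sought with BLAST 2.17.0 (at least 90% identity over 150 bases). Alternatives were DESeq2 1.42.0, other scalings and filters, subsets of exon IDs, a replicate block and leaving out each library. The tests were tried on simulated counts. Replicate libraries differed beyond sampling noise (chi-square per degree of freedom 5.15 to 24.4), so none is a copy of another's counts. This does not show whether any were made from the same oocytes. Counting intervals and floors of 3 counts cover counting error alone, since PCR copies of a molecule are counted more than once.

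The members, lists and rules were chosen with earlier results of these data known. All members are named. Of each list, up to 4 called genes of smallest p are named, and the 2 most similar genes each for Wee1, Wee2 and Mos. Sequences were read from GENCODE M21 transcripts.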

Additional observations from a re-analysis of the deposited data

Results flagged for a closer look

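In 3 of the 20 sets of 4 libraries formed by the members and groups, 1 library lay far from the other 3 by Dixon's test at the 95% level; chance gives about 1 in 20 such sets. Cdc25b was at 0.665 CPM in Kiaa1429 cKO replicate 1, against 1.91 to 2.15 CPM in the other cKO libraries, a matter of few counts. Cdc25c was at 13.2 CPM in control replicate 3, against 8.00 to 8.87 CPM in the other control libraries. Mos was at 5483 CPM in control replicate 3, against 4579.9 to 4697 CPM in the other control libraries, and without that library its log2 fold change was -0.54 (edgeR adjusted p = 0.000481).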

How the results depend on the processing

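Over 30 log2 values of members, exons and exon usage, 346 of 384 recomputed values kept their direction and side of the threshold. Wee1, Wee2 and Mos kept their calls under every alternative that gave a value; leaving out last exons gives none for Mos and Cdk1. Genes called numbered 973 higher and 995 lower with last exons left out (2883 and 2973 with all exons, 2602 to 3068 and 2764 to 3018 with 1 library left out), and 1965 lower with exon IDs of protein-coding transcripts, a setting chosen after seeing the data. Cdc25a missed the threshold with no low-count filter (0.38), protein-coding genes only (0.28), last exons left out (0.15), exon IDs of protein-coding transcripts (0.31) and some single libraries left out (range 0.24 to 0.44). Ccnb2 did so without scaling factors (-0.33) and last exons (-0.34). Cdc25c turned to -0.13 without last exons and to -0.42 with exon IDs of protein-coding transcripts, and Pkmyt1 ranged from -0.62 to 0.28 with 1 library left out. With 1 library left out, member exons called ranged from 5 to 9 (8 with all libraries, 10 with no filter beyond 10 counts), and members called for exon usage from 0 to 1. The 488-base exon of Pkmyt1 then ranged from -0.41 to 0.95 and was at 0.19 with a replicate block; the 581-base exon of Cdc25a ranged from -0.055 to 0.74 and the 220-base exon of Cdc25c from -0.38 to 0.11. The causes were not tested. Leaving out scaling factors shifts log2 fold changes by a median of 0.157. Deviations of same-numbered libraries from their group means had correlations of -0.0516 to 0.104, with 2 of 4 over 0.1. Of the 8 libraries, 4 correlated best with their own number. Such weak correlations over 4 libraries per group cannot decide whether the numbers pair samples. With a replicate block Wee1 was at 1.32, Wee2 at -0.94 and Mos at -0.61, and no gene-level member call changed. Cdk1, Ccnb1 and Cdc25b rest on 87, 62 and 35 counts, from the few stretches where reads could be counted.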
